A study of Mus musculus with 16 samples.

Results

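Airway secretory genes were followed across mouse organoids: 4 genes of the BPI fold family (Bpifa1, Bpifb1, Bpifb4 and Bpifb9a), 2 secretoglobins (Scgb1a1 and Scgb3a2) and 4 mucins (Muc1, Muc4, Muc16 and Muc5b). The 10 genes were taken by name and matched by symbol. All 10 had a row among the 51912 entries of the normal tissue table, and 9 had a row among the 24421 genes of the symbol tables; Muc16 had none there. Poly(A) RNA of 16 C57BL/6 libraries was sequenced. Untreated normal organoids were labelled Normal_nasopha (nasopharynx, 3 libraries) and Normal_lung (3 libraries). The other 4 groups were tumour organoids, and all of them carried Trp53-/-, Myc and sgCdkn2a, a guide RNA against Cdkn2a. Ctr (3 libraries) and Lung-Ctr (2 libraries) carried these 3 changes only (TMP), whereas LMP1 (2 libraries) and Lung-LMP1 (3 libraries) also carried LMP1, the latent membrane protein of Epstein-Barr virus (TMPL). The tumours had grown in recipient mice after transplantation to the nasopharynx. The series' design text names primary and metastasized organoids of both genotypes, while the sample descriptions tie primary to TMP and metastasis to TMPL without exception, so groups are named here by their titles. The labels do not give the promoter that drives Myc or LMP1, the number of clones, or whether replicates came from separate animals or cultures. The p-values therefore measure only the spread between these samples.

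Airway epithelium is kept moist and clean by a secreted fluid layer and a mucus gel. Club cells and submucosal glands release secretoglobins and BPI fold proteins, which act as small surface-active or antimicrobial proteins. Goblet cells and glands secrete gel-forming mucins such as Muc5b, and membrane-bound mucins such as Muc1, Muc4 and Muc16 coat the cell surface. Secretoglobins mark club cells of the conducting airways, and BPI fold proteins are abundant in the nose and upper airway.

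Library totals ran from 12535166 to 21737184 counts, so that 3 counts in 1 library equalled 0.138 to 0.239 counts per 1000000 counts (CPM). Markers of alveolar type 2 cells summed to between 62823 and 73381 CPM in Normal_lung and to at most 299 CPM in Normal_nasopha, with all 8 markers counted in both. Basal cell markers summed to between 2763 and 15739 CPM in Normal_nasopha and to at most 246 CPM in Normal_lung. The 10 tumour libraries also held basal markers, at 692 to 4285 CPM in 8 libraries, but both LMP1 libraries stood apart at 133 and 187 CPM. Trp53 was counted in every tumour library, at 58.1 to 109 CPM, and a count per gene cannot show which exons were deleted. Cdkn2a ran from 122 to 381 CPM in tumours against 3.97 to 8.54 CPM in normal organoids, and Myc from 457 to 2005 CPM against 6.65 to 93.6 CPM. The LMP1 transcript was not analysed here.

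**Figure D1:**
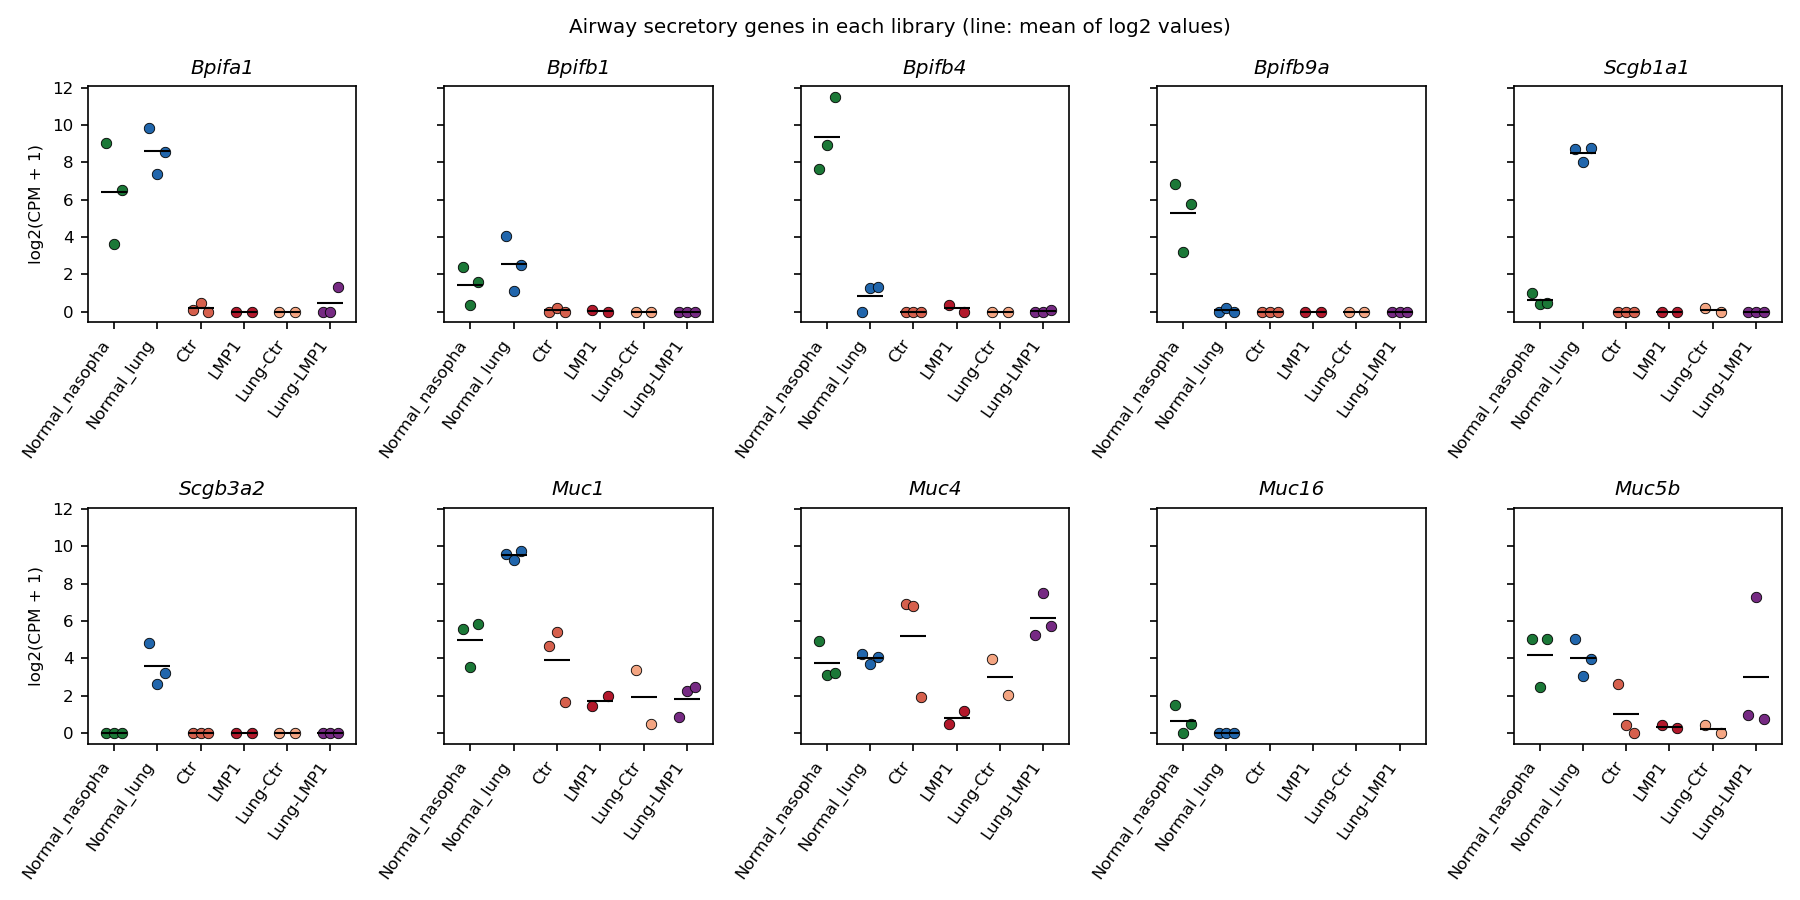
Level of each gene in each library as log2(CPM + 1) on the vertical axis, with 1 point per library, 1 panel per gene and a line at the mean of each group. Bpifb4 and Bpifb9a were highest in Normal_nasopha, Scgb1a1 and Scgb3a2 in Normal_lung, and Muc4 spread over a wide range among tumours. The Muc16 panel has no tumour points because the symbol tables hold no row for it.

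The first comparison set normal nasopharynx organoids against normal lung organoids. Of the 9 genes with enough counts to test, 5 passed an adjusted p of 0.05 (edgeR quasi-likelihood test, Benjamini-Hochberg adjusted over 15886 genes). Bpifb4 and Bpifb9a were higher in nasopharynx, and Scgb1a1, Scgb3a2 and Muc1 were higher in lung. Of these 5, all but Muc1 passed the filter on low counts only through the tissue where they were high. Over all genes tested 31.1% passed, 15.4% higher and 15.6% lower in nasopharynx. Normal_lung contained alveolar cells besides any airway cells, and in bulk RNA fewer cells of a type and less RNA per cell cannot be told apart.

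**Figure D2:**
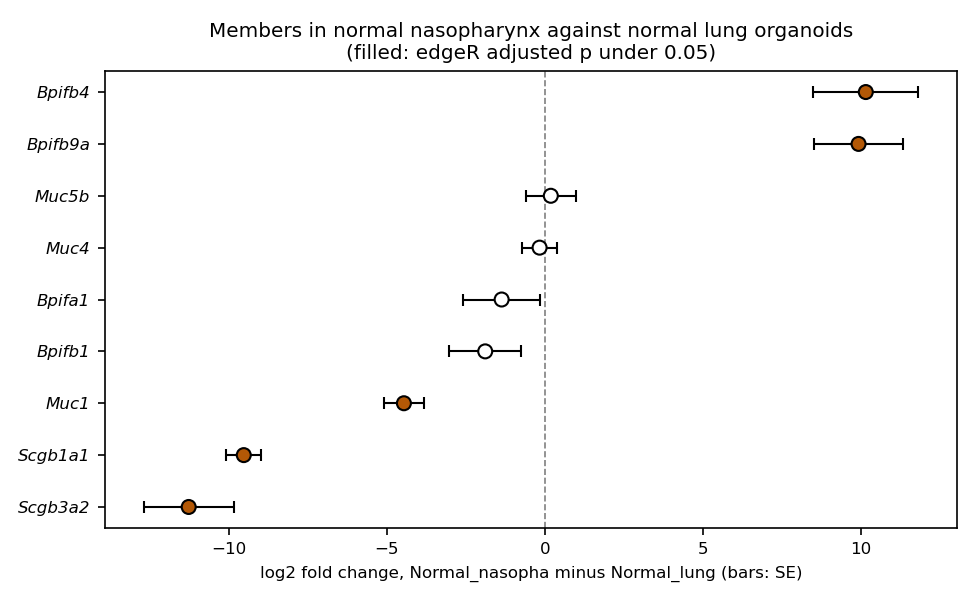
Log2 fold change of Normal_nasopha minus Normal_lung on the horizontal axis for the 9 genes tested, with bars of 1 standard error; filled points had an adjusted p under 0.05. Bpifb4 and Bpifb9a lie near 10 on the nasopharynx side, and Scgb1a1 and Scgb3a2 lie at -9.53 and -11.27 on the lung side. Muc4 and Muc5b lie near 0.

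The BPI fold genes sit in a row of 13 genes that spans 446 kb of chromosome 2 (GRCm38), a cluster that also holds Bpifb2, Bpifb3, Bpifb5, Bpifb6, Bpifb9b and 4 further Bpifa genes. The sequences just upstream of 4 of them are shown because the tissues differed in Bpifb4, Bpifb9a and Bpifb9b. Bpifa1, which lies between them, passed the test only in a fit that also allowed for replicate number. Each run is the 250 bases before the RefSeq start on the plus strand (RefSeq, GRCm38.p6); capitals mark TATAAA, the TATA box letters, and CTTCCT, which is AGGAAG, an ETS factor core, read on the other strand.
Bpifb4, chr2:153940612-153940861: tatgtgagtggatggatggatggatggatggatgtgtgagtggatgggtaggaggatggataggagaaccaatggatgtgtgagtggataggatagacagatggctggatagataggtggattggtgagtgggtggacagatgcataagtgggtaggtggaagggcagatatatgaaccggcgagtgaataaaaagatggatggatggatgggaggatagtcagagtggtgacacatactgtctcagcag
Bpifa1, chr2:154142630-154142879: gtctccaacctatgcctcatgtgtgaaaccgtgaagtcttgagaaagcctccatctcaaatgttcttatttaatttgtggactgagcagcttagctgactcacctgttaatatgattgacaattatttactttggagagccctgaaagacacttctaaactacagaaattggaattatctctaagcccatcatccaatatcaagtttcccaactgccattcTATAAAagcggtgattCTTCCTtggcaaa
Bpifb9a, chr2:154257629-154257878: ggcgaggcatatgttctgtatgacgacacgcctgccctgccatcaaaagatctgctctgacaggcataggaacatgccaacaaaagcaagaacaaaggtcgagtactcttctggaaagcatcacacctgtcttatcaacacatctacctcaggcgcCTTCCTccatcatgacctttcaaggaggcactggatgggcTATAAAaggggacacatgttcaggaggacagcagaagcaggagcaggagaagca
Bpifb9b, chr2:154306994-154307243: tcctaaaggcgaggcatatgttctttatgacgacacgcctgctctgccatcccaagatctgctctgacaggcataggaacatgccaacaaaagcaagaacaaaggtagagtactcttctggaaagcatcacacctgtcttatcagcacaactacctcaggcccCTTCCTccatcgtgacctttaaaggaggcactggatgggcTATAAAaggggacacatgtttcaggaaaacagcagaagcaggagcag

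The Bpifb9a and Bpifb9b windows were 95% identical over the aligned bases, and the Bpifa1 and Bpifb4 windows were 54.8% identical. TATAAA began 29 bases before the start of Bpifa1, 54 before that of Bpifb9a and 47 before that of Bpifb9b; the Bpifb4 window did not hold it. The RefSeq table had a window for 7 of the 10 genes, 8 windows in all, and TATAAA was in 4 of the 8 against 12.4% of 32851 windows of the same length. AGGAAG on either strand was in 3 of the 8 windows, against 29.5% of all windows. The motifs TGTTTAC (FOX), TTGCNNAA (C/EBP) and CAAGTG (NKX2) were also searched on both strands, and none was in the 8 windows, against 3.17%, 9.56% and 11.6% of all windows. A match of letters is a description, not a binding site. These distances count from the RefSeq starts, and those of Bpifb4, Bpifb9a and Bpifb9b lie downstream of the annotated starts. From the annotated starts TATAAA lay 29 bases upstream of Bpifb9a and 30 upstream of Bpifb9b, and the whole Bpifb4 window lies inside the annotated span of that gene.

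Bpifb4, a BPI fold protein of the nose and upper airway (chr2:153938212-153964101, plus strand), stood at 197, 478 and 2915 CPM in the 3 Normal_nasopha libraries. In Normal_lung it had 0, 1.38 and 1.46 CPM, from 0, 29 and 30 counts. The groups did not overlap. The log2 fold change was 10.15 ± 1.66 (SE), with an adjusted p of 0.00478 by edgeR. Its level varied among nasopharynx libraries by 14.8 times, and replicate 3, the highest, also had the highest sum of olfactory markers, at 95.5 CPM against 21.2 and 25.1 CPM in the other replicates. Of those 7 markers 5 were counted in replicate 3. Cyp2g1, an olfactory mucosa P450, made up most of the sum there, at 68.8 CPM against 1.74 and 6.90 CPM in replicates 1 and 2. Omp, which mature olfactory neurons express, stood at 0.68 CPM in replicate 3 and at 2.47 CPM in replicate 1, and Cnga2 at 0 CPM in all 3. The part of olfactory cells in the Bpifb4 level was not tested.

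Bpifb9a (chr2:154257854-154271245) followed the same pattern at a lower level. Its 3 Normal_nasopha libraries held 114, 8.33 and 53.1 CPM, and its Normal_lung libraries 0, 0.142 and 0 CPM. The groups did not overlap, and the lung value came from 3 counts in 1 library. The fitted log2 fold change was 9.92 ± 1.41 (SE), with an adjusted p of 0.00282 by edgeR, and the ratio of pooled counts was 1185, with a 95% counting interval of 405 to 5750. The longest transcripts of Bpifb9a and Bpifb9b are 99.3% identical, so reads may have been split between them. The summed level of both copies was 343, 24.5 and 137 CPM in Normal_nasopha, and Bpifb9a received 33.2%, 34.0% and 38.8% of it.

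Bpifa1, also known as SPLUNC1 and one of the most abundant proteins of upper airway fluid, was high in both tissues. Its 3 Normal_nasopha libraries held 532, 11.5 and 89.4 CPM, and the Normal_lung libraries 903, 166 and 370 CPM. The groups overlapped, and nasopharynx libraries differed from each other by 46.1 times. The log2 fold change was -1.37 ± 1.22 (SE), with an adjusted p of 0.424 by edgeR. Bpifb1, the long family member known as LPLUNC1, showed 4.26, 0.276 and 1.99 CPM in Normal_nasopha and 15.5, 1.14 and 4.57 CPM in Normal_lung. These groups overlapped as well, and the adjusted p was 0.246 for a log2 fold change of -1.89 ± 1.13 (SE). Both genes were lower in nasopharynx at each replicate number. In an edgeR fit that also allowed for replicate number, their log2 fold changes were -2.35 and -1.83, with adjusted p-values of 0.0423 and 0.0373. Whether replicate numbers pair the libraries is not given.

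**Figure D3:**
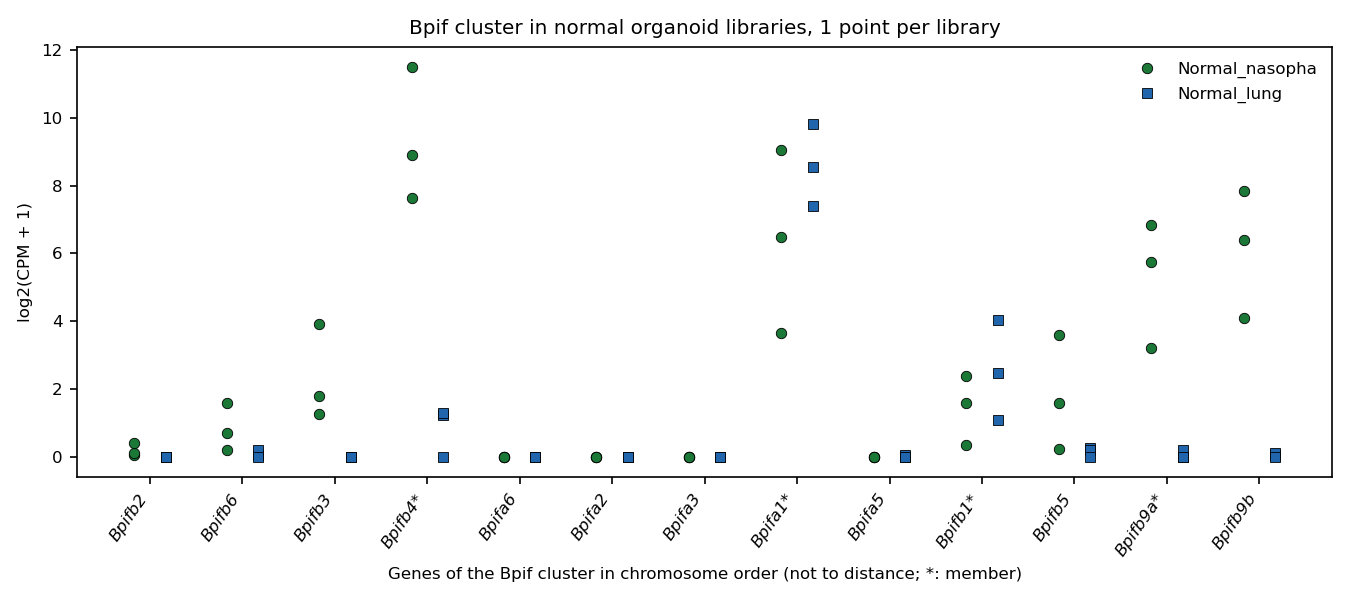
Level of the 13 genes of the Bpif cluster, in chromosome order on the horizontal axis, as log2(CPM + 1) in each normal library; circles are Normal_nasopha, squares Normal_lung, and asterisks mark the 4 genes described here. Bpifb4, Bpifb9a and Bpifb9b were high in nasopharynx and near 0 in lung, while Bpifa1 and Bpifb1 were counted in every library of both tissues.

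Bpifb9b and Bpifb3, the other genes of the cluster with enough counts to test, were higher in nasopharynx, through which alone they passed the filter. Bpifb9b had 110 ± 109 CPM (SD, n = 3) in Normal_nasopha and 0.0482 ± 0.0475 CPM in Normal_lung, a log2 fold change of 10.82 ± 1.40 (SE) with an adjusted p of 0.00199 by edgeR. Bpifb3 had 5.97 ± 6.99 CPM (SD) in nasopharynx and 0 counts in all 3 lung libraries, with an adjusted p of 0.0161. Lbp, the lipopolysaccharide-binding protein of the same fold, outside the cluster, was lower in nasopharynx, by a log2 fold change of -1.87 ± 0.51 (SE) with an adjusted p of 0.0313. These were the 3 of 12 other BPI fold genes listed that had enough counts to test. The Lbp call was kept in 7 of 11 alternative settings, with a highest adjusted p of 0.103, and those of Bpifb9b and Bpifb3 in all of them.

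The secretoglobins were lung genes in these organoids. Scgb1a1, the uteroglobin that defines club cells (chr19:9083636-9087958, minus strand), stood at 424, 253 and 439 CPM in Normal_lung. In Normal_nasopha it had 0.967, 0.322 and 0.388 CPM, from 20, 7 and 8 counts. The groups did not overlap, and the log2 fold change was -9.53 ± 0.55 (SE) with an adjusted p of 0.000168 by edgeR. Scgb3a2, a club cell secretoglobin also known as UGRP1, was at 27.9, 5.32 and 8.40 CPM in Normal_lung. It had 0 counts in all 3 Normal_nasopha libraries, so its mean was at least 291-fold higher in lung, taking 3 counts over the group as the floor. The adjusted p was 0.00509 by edgeR.

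Other secretoglobins were split between the tissues. Scgb3a1, another airway secretoglobin, was at 155, 18.3 and 60.0 CPM in Normal_lung and at 0.435, 0 and 0.0485 CPM in Normal_nasopha. Its log2 fold change was -9.05 ± 1.27 (SE), with an adjusted p of 0.00274. Scgb1c1, a secretoglobin known from nasal tissue, went the other way, at 2.76, 24.8 and 31.1 CPM in Normal_nasopha and 0.248 to 0.570 CPM in Normal_lung, with a log2 fold change of 5.28 ± 0.96 (SE) and an adjusted p of 0.00703. These were the only 2 of 17 other secretoglobins with enough counts to test, and both calls held in all 11 alternative settings. Each passed the filter on low counts only through the tissue where it was high, so the values are given as a description.

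Among the mucins, Muc1 differed between the tissues and the others did not pass the test. Muc1 (chr3:89229057-89233381, plus strand) and Muc4 (chr16:32735886-32782391, plus strand) are the mucins on which the tumour results turn, and their upstream windows are shown in the same way, with TATAAA in capitals 31 bases before the start of Muc1 and 36 before that of Muc4.
Muc1, chr3:89228806-89229055: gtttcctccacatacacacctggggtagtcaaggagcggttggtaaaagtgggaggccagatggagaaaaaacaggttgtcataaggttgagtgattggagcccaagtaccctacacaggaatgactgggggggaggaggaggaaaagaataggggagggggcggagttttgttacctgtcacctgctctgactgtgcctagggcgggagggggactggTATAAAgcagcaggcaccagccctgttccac
Muc4, chr16:32735636-32735885: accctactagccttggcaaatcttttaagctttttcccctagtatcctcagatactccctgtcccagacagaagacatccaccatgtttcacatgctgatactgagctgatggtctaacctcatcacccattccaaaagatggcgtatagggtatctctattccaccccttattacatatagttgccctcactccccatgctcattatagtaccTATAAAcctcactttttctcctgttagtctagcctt

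Muc1, a membrane mucin of most glandular epithelia, was at 765, 624 and 865 CPM in Normal_lung and at 47.4, 10.5 and 56.5 CPM in Normal_nasopha. The groups did not overlap, and the lung libraries lay within 1.39 times of each other. The log2 fold change was -4.46 ± 0.63 (SE), with an adjusted p of 0.00279 by edgeR. Alveolar type 2 markers, led by Sftpc at 37317 to 45810 CPM, were higher in Normal_lung, as were Muc1 and both secretoglobins. Within Normal_lung, replicate 2 had the highest marker sum, at 73381 CPM, and the lowest levels of Muc1 and both secretoglobins. That library also had the highest fibroblast marker sum, at 449 CPM against 76.6 and 74.3 CPM in replicates 1 and 3. Its immune marker sum was the highest too, at 2909 CPM against 1671 and 2535 CPM. The part of alveolar, fibroblast or immune cells in these differences was not tested.

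Muc4, a large membrane mucin of airway epithelium, held 29.6, 7.77 and 8.34 CPM in Normal_nasopha and 17.8, 12.1 and 16 CPM in Normal_lung. The groups overlapped, with a log2 fold change of -0.17 ± 0.54 (SE) and an adjusted p of 0.833 by edgeR. Without Normal_nasopha replicate 1, the highest library, the value was -1.10 with an adjusted p of 0.0284. Muc5b, the gel-forming mucin needed for airway clearance (chr7:141839070-141873084), was at 31.9, 4.46 and 32.6 CPM in Normal_nasopha and at 31.5, 7.22 and 14.9 CPM in Normal_lung. These groups overlapped and did not differ beyond their spread, with an adjusted p of 0.877. Muc16, a very large membrane mucin of ocular and airway surfaces (chr9:18495455-18674530, minus strand), had 38, 0 and 8 counts in Normal_nasopha and 0 in all Normal_lung libraries, too few for the filter. Its mean was at least 15.3-fold higher in nasopharynx with 3 counts over the group as the floor, but 1 nasopharynx library was also at 0. The authors' deposited table gives it an adjusted p of 0.0191.

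Between genes, levels can be compared only per length of transcript. In Normal_nasopha the order of mean CPM per kilobase was Bpifb4 at 383, Bpifa1 at 137, Bpifb9a at 25.7 and Muc1 at 16.3, and the ranges of neighbours in this order overlapped. A gap without overlap separated Muc1 from Muc5b at 1.54, which was followed by Muc4 at 1.29, Scgb1a1 at 1.17 and Bpifb1 at 0.601 CPM per kilobase with overlapping ranges. In Normal_lung the order was Scgb1a1 at 782, then Muc1 at 320 and Bpifa1 at 311, whose ranges overlapped, then Scgb3a2 at 15.7 CPM per kilobase. Bpifb1, Muc4 and Muc5b followed between 1.19 and 1.96 CPM per kilobase with overlapping ranges, and Bpifb4, Bpifb9a and Muc16 were at or below 0.302. Muc4 and Muc5b thus held a middle place per kilobase in both tissues.

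Genes that work with these secretory products were read from lists. Of 12 goblet cell and mucus granule genes tested, 5 rose and 3 fell in nasopharynx, with a median log2 fold change of 1.47 against 0.13 over all genes. Of all genes tested, 15.4% were called higher and 15.6% lower in nasopharynx. Galnt6, an enzyme that starts O-linked mucin glycans, had 114 ± 56.8 CPM (SD) in nasopharynx and 2.69 ± 1.34 CPM in lung, with an adjusted p of 0.0012. Agr2, a disulfide isomerase needed for mucin folding, had 49.5 ± 59.0 and 0.539 ± 0.348 CPM (SD), with an adjusted p of 0.00926. Xbp1, a factor of the secretory apparatus, had 272 ± 70.8 and 90.6 ± 17.9 CPM (SD), with an adjusted p of 0.00551. Gcnt3, which branches mucin glycans, went the other way, at 0.144 ± 0.0979 and 4.52 ± 2.38 CPM (SD), with an adjusted p of 0.00242. Creb3l1, a membrane-bound transcription factor, had 3.35 ± 1.80 and 15.4 ± 2.48 CPM (SD, adjusted p = 0.0108), and Fcgbp, which encodes a mucus-binding protein, had 1.18 ± 0.160 and 3.07 ± 0.852 CPM (SD, adjusted p = 0.0269).

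Of 22 club cell and airway fluid genes tested, 3 rose and 7 fell in nasopharynx, with a median of -0.35. The shares over all genes tested were 15.4% higher and 15.6% lower, so the 3 that rose were near that share. Ltf, lactoferrin, had 2094 ± 1926 CPM (SD) in nasopharynx and 79.1 ± 48.8 CPM in lung, with an adjusted p of 0.0106. Lcn11, a lipocalin, had 7.29 ± 8.84 CPM (SD) in nasopharynx and 0 counts in lung (adjusted p = 0.0192), and Slpi, a protease inhibitor of airway fluid, had 267 ± 240 and 47.6 ± 5.94 CPM (SD, adjusted p = 0.0436). Hp, haptoglobin, had 4.68 ± 4.58 and 900 ± 331 CPM (SD), with an adjusted p of 0.00117, and Lyz1, a lysozyme, had 0.607 ± 0.482 and 424 ± 138 CPM (SD), with an adjusted p of 0.00026. Slc26a4, the anion exchanger pendrin, had 0.0952 ± 0.0968 and 55.3 ± 24.9 CPM (SD, adjusted p = 0.000396). Among 18 transcription factors of secretory fate, 4 rose and 6 fell, with a median of 0.15, against the same shares over all genes. Foxa2, a factor of lung endoderm, had 0.322 ± 0.434 CPM (SD) in nasopharynx and 162 ± 11.4 CPM in lung, with an adjusted p of 0.000493. Sox9, a factor of glands and airway progenitors, had 24.6 ± 4.34 and 0.65 ± 0.171 CPM (SD), with an adjusted p of 0.000277. Ehf, an epithelial ETS factor, was also higher in nasopharynx, at 104 ± 25.3 and 20.2 ± 3.76 CPM (SD, adjusted p = 0.00124). Cebpa and Etv5, factors expressed in alveolar epithelium, were lower there. Cebpa had 75.1 ± 14.5 and 713 ± 106 CPM (SD, adjusted p = 0.000284), and Etv5 had 68.6 ± 16.7 and 485 ± 16.2 CPM (SD, adjusted p = 0.000371). The calls of the genes named from these 3 lists held in all 11 alternative settings by edgeR or DESeq2, except Fcgbp, held in 5 with a highest adjusted p of 0.114, and Slpi, held in 4 with a highest of 0.137. Agr2, Gcnt3, Lcn11, Lyz1, Slc26a4 and Foxa2 passed the filter on low counts only through the tissue where they were high. Their values are given as a description.

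Tumour organoids held nearly no counts of the BPI fold genes and secretoglobins, and most of their counts of these genes came from mucins. Over the 10 tumour libraries and their 147778537 counts, the 4 BPI fold genes together had 34 counts, the 2 secretoglobins had 2 and the 3 mucins with a row had 11604. Bpifa1 had 25 counts, of which 19 were in Lung-LMP1 replicate 3, or 1.52 CPM, and 5 were in Ctr replicate 2. Bpifb1 had 3 counts in 2 libraries, Bpifb4 had 6 counts in 2 libraries, and Bpifb9a and Scgb3a2 had 0 counts in all 10. Scgb1a1 had 2 counts, both in Lung-Ctr replicate 1. The whole Bpif cluster of 13 genes had 57 counts in the 10 tumour libraries. Normal and tumour values come from tables with different gene sets, each scaled to its own library total.

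**Figure D4:**
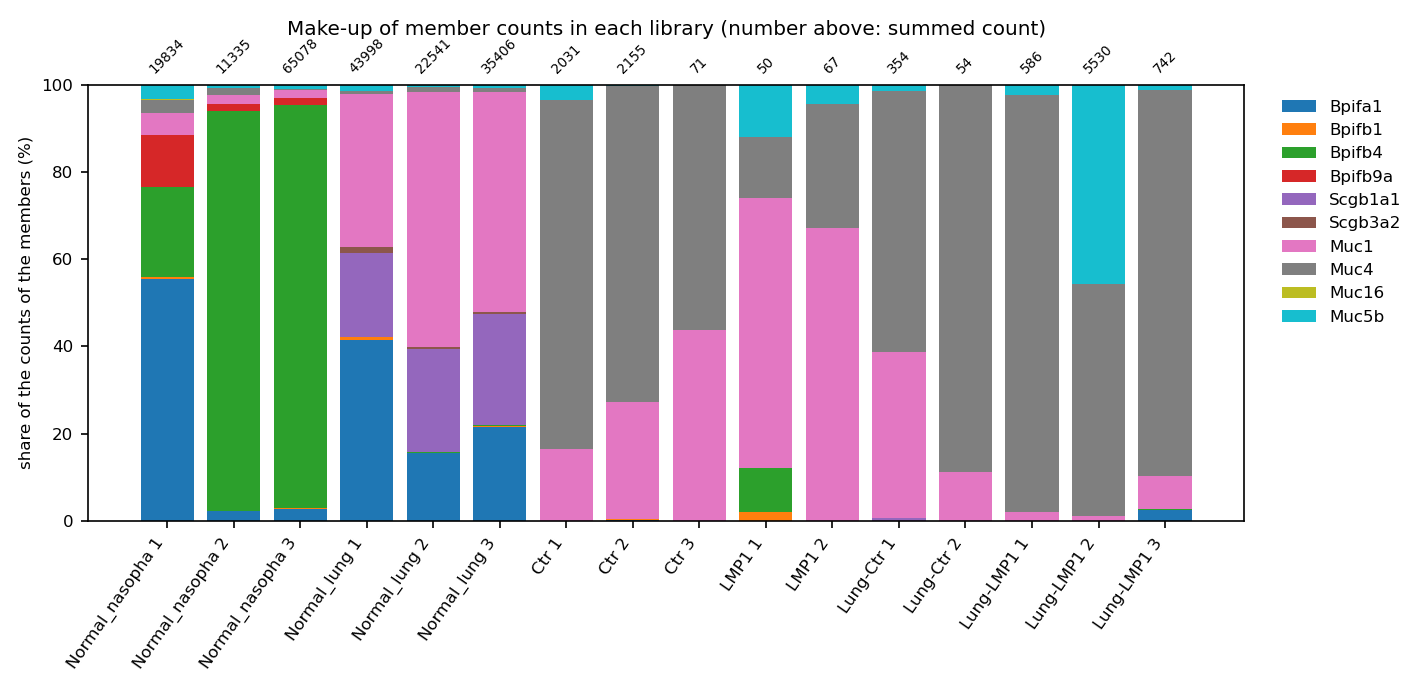
Share of the counts of the 10 genes that each gene took in each library, as stacked bars on a scale of 0 to 100%, with the summed count above each bar. BPI fold genes led in Normal_nasopha, Muc1, Scgb1a1 and Bpifa1 in Normal_lung, and Muc1, Muc4 and Muc5b made up most of the smaller sums in tumours. Counts are not scaled to gene length.

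The summed level of the genes ran from 521 to 3157 CPM in Normal_nasopha and from 1070 to 2185 CPM in Normal_lung. Among tumours it ran from 4.94 to 155 CPM in Ctr, 2.77 to 4.53 CPM in LMP1, 3.59 to 24.7 CPM in Lung-Ctr and 39.7 to 338 CPM in Lung-LMP1, without overlap between any tumour group and the normal groups. Muc4 took the largest share of the genes' counts in 8 of the tumour libraries, and Muc1 in the 2 LMP1 libraries. These shares are not scaled to length, and the exons of Muc4 span 11.8 kb against 2.35 kb for Muc1.

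TMPL was first set against TMP in the groups without the Lung prefix, LMP1 against Ctr. In such a comparison the genotype cannot be told apart from the described tumour origin or from clone. Muc1, Muc4 and Muc5b were the genes with enough counts to test in tumours, and 1 of these 3, Muc4, passed the test, lower in LMP1. Of 13460 genes tested 16.4% passed, 7.36% higher and 9.06% lower in LMP1. Muc4 stood at 0.387 and 1.29 CPM in the 2 LMP1 libraries and at 119, 113 and 2.78 CPM in the 3 Ctr libraries. The groups did not overlap, but Ctr replicate 3 was much nearer to the LMP1 libraries than to the other Ctr libraries. The log2 fold change was -6.58 ± 1.78 (SE), with an adjusted p of 0.0379 by edgeR. The call did not hold without Ctr replicate 1 (adjusted p = 0.0698), Ctr replicate 2 (0.0606), LMP1 replicate 1 (0.246) or LMP1 replicate 2 (0.187), nor in a fit of the compared groups alone (0.0642). It held without Ctr replicate 3, at an adjusted p of 0.0174 by edgeR. The call was kept in 3 of 10 alternatives, among them DESeq2, and the authors' deposited table gives an adjusted p of 0.000416.

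Muc1 had 1.72 and 3.04 CPM in LMP1 and 24.5, 41.8 and 2.16 CPM in Ctr. The groups overlapped through Ctr replicate 3, and the log2 fold change of -3.27 ± 1.47 (SE) had an adjusted p of 0.157 by edgeR. DESeq2 on the same counts gave Muc1 an adjusted p of 0.0274, and the authors' deposited table gives 0.00443. Muc5b had 0.332 and 0.203 CPM in LMP1 and 5.14, 0.360 and 0 CPM in Ctr, with overlap and an adjusted p of 0.516. Ctr replicate 2, with the highest Muc1 level, also had a fibroblast marker sum of 109 CPM, where the other Ctr libraries had at most 1.17 CPM, and the part of such cells was not tested.

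The LMP1 libraries also differed in cell markers. Their squamous markers summed to 13.4 and 30.6 CPM, against 335 to 950 CPM in Ctr, and Krt5, a keratin of basal cells, was at 4.54 and 12.7 CPM, against 441 to 1823 CPM in Ctr. The 6 ionocyte and tuft cell markers summed to 109 and 76.0 CPM in LMP1 and to 1.11 to 17.6 CPM in Ctr. Nearly all of the LMP1 sums was 1 gene, Dclk1, at 107 and 74.3 CPM, against 0.0734 to 15.8 CPM in Ctr. Only 3 and 4 of the 6 markers were counted in the LMP1 libraries. Of the 8 squamous markers, Krt13 had 0 and 0.203 CPM in LMP1. Fibroblast markers, all 6 of them counted, summed to 75.4 and 36.1 CPM in LMP1. In Ctr replicates 1, 2 and 3 they summed to 1.17, 109 and 0.278 CPM. Basal and squamous markers were lower in LMP1, as Muc4 was, but within Ctr they did not order with Muc4. Ctr replicate 3, with the lowest Muc4 level of Ctr, had the highest basal sum, at 3569 CPM. The part of these cells in the Muc4 difference was not tested.

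In the groups with the Lung prefix, none of the 3 genes passed for Lung-LMP1 against Lung-Ctr. There 0% of 13460 genes passed with edgeR, with 2295 genes at an unadjusted p under 0.05, while DESeq2 called 881 genes but none of these 3. Muc4 was at 37.9, 180 and 52.4 CPM in Lung-LMP1 and at 14.8 and 3.19 CPM in Lung-Ctr. The groups did not overlap, and all Lung-LMP1 libraries were higher, but the log2 fold change of 3.38 ± 1.44 (SE) had an adjusted p of 0.280 by edgeR. The authors' deposited table gives an adjusted p of 0.00363 for the same pair of groups. Muc5b had 0.948, 155 and 0.718 CPM in Lung-LMP1 and 0.348 and 0 CPM in Lung-Ctr. Lung-LMP1 replicate 2 alone carried 2527 of the 2639 tumour counts of Muc5b. The log2 fold change of Muc5b was 8.23 ± 3.23 (SE), with an adjusted p of 0.247, and it was 2.28 without that library. Muc1 had 0.813, 3.73 and 4.47 CPM in Lung-LMP1 and 9.40 and 0.399 CPM in Lung-Ctr, with overlap and an adjusted p of 0.824.

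Whether the difference of TMPL from TMP was unlike in the groups with and without the Lung prefix was tested as an interaction. For Muc4 the log2 interaction value was 9.96 ± 2.29 (SE), with an unadjusted p of 0.00194 and an adjusted p of 0.0869 by edgeR, which missed the threshold. Of all genes 0.892% passed, 0.81% with a higher and 0.0817% with a lower difference. DESeq2 gave an adjusted p of 3.44e-05, and edgeR without Ctr replicate 3 gave 0.0405. Over all 14 alternatives the adjusted p of Muc4 ran from 3.44e-05 to 0.464. Muc5b and Muc1 did not pass, with adjusted p-values of 0.259 and 0.565.

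The Lung prefix was compared within each genotype. For Lung-Ctr against Ctr no gene passed with edgeR (0% of 13460 genes, with 717 at an unadjusted p under 0.05 and 40 called by DESeq2). Muc4, Muc1 and Muc5b had log2 fold changes of -3.06, -2.15 and -3.29, with adjusted p-values of 0.915, 0.915 and 0.917, and the groups overlapped for each gene. For Lung-LMP1 against LMP1, 10.1% of genes passed, 6.17% higher and 3.95% lower, and among the 3 mucins Muc4 did, higher in Lung-LMP1. Its log2 fold change was 6.90 ± 1.80 (SE), with an adjusted p of 0.0445 by edgeR, and the authors' deposited table gives 1.23e-09. The call did not hold without LMP1 replicate 1 (adjusted p = 0.309), LMP1 replicate 2 (0.206), Lung-LMP1 replicate 1 (0.0627), replicate 2 (0.0882) or replicate 3 (0.0891). Muc5b had a log2 fold change of 7.67 ± 3.07 (SE) and an adjusted p of 0.147, and 1.74 without Lung-LMP1 replicate 2. Muc1 had an adjusted p of 0.868 at 0.46. Basal markers summed to 2279 to 3829 CPM in Lung-LMP1 against 133 to 187 CPM in LMP1, squamous markers to 1658 to 2980 CPM against 13.4 to 30.6 CPM, and fibroblast markers to 0.406 to 1.52 CPM against 36.1 to 75.4 CPM. Within Lung-LMP1 the basal sum was lowest, at 2279 CPM, in replicate 2, which had the highest Muc4 level. The part of these markers in the Muc4 difference was not tested. This comparison and that of LMP1 with Ctr share the 2 LMP1 libraries, which had the lowest Muc4 levels of all.

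Across all 6 groups, Muc4 was ordered as Lung-LMP1 (90.1 ± 78.2 CPM, SD, n = 3), Ctr (78.3 ± 65.4), Normal_lung (15.3 ± 2.93), Normal_nasopha (15.2 ± 12.4), Lung-Ctr (8.98 ± 8.18, n = 2) and LMP1 (0.837 ± 0.635, n = 2). Between neighbours in this order, only the last step was without overlap of libraries. Groups further apart could be without overlap, as the lowest Lung-LMP1 library, at 37.9 CPM, lay above the highest normal library, at 29.6 CPM. Muc1 was highest in Normal_lung (751 ± 121 CPM, SD, n = 3), without overlap with Normal_nasopha (38.1 ± 24.3), and the groups after it, from Ctr (22.8 ± 19.9) to LMP1 (2.38 ± 0.940), overlapped step by step. Muc5b was led by Lung-LMP1 (52.1 ± 88.8 CPM, SD, n = 3), where the SD exceeded the mean, and a gap without overlap lay between Normal_lung (17.9 ± 12.4) and Ctr (1.83 ± 2.87). The 3′ end of Muc4 overlaps Muc20 on the other strand, and whether the counting used strand is not given. Muc20, itself a membrane mucin, had at most 6.19 CPM in any tumour library.

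Per kilobase of annotated exons, Muc1 led the order in Ctr, LMP1 and Lung-Ctr, at 9.73, 1.01 and 2.09 CPM per kilobase. Muc4 followed it in each, at 6.66, 0.0711 and 0.763, and the ranges of both overlapped in Ctr and Lung-Ctr but not in LMP1. In Lung-LMP1, Muc4 at 7.67 and Muc5b at 3.48 came before Muc1 at 1.28 CPM per kilobase, with overlapping ranges.

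For LMP1 against Ctr, 2 of 16 club cell and airway fluid genes, 4 of 16 fate factors and 1 of 11 goblet cell genes were called, against 16.4% of all genes tested. Tspan8, a tetraspanin of secretory epithelium, was at 0.886 and 2.23 CPM in LMP1 and 9.53 to 62.9 CPM in Ctr, and fell by a log2 value of 4.76 with an adjusted p of 0.0398 by edgeR. Cbr2, a carbonyl reductase of club cells, had 17.2 ± 2.86 CPM (SD, n = 2) in LMP1 and 337 ± 186 CPM (n = 3) in Ctr, with an adjusted p of 0.0106. The median log2 fold change of the 16 club cell and airway fluid genes was -1.21, against -0.01 over all genes. Among 16 fate factors, Grhl2 and Foxa1, both factors of epithelial identity, fell and Cebpd and Notch2 rose, with a median of -0.03. Grhl2 had 9.32 ± 3.0 CPM (SD) in LMP1 and 96.8 ± 29.9 CPM in Ctr, with an adjusted p of 0.00286. Foxa1 had 13.6 ± 1.76 and 118 ± 23.9 CPM (SD), with an adjusted p of 0.00908. Cebpd had 72.7 ± 1.51 and 11.4 ± 5.20 CPM (SD, adjusted p = 0.00987), and missed the threshold without LMP1 replicate 1 (0.0945) or replicate 2 (0.0726). Notch2 had 162 ± 16.8 and 81.4 ± 28.2 CPM (SD, adjusted p = 0.0287), a call kept in 4 of 10 alternatives, which it lost without either LMP1 library, Ctr replicate 1 or Ctr replicate 3 (adjusted p = 0.0579 to 0.198).

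For Lung-LMP1 against LMP1, Tspan8, Cbr2, Grhl2 and Foxa1 were higher in Lung-LMP1. Tspan8 had 70.8 ± 66.9 CPM (SD) in Lung-LMP1 and an adjusted p of 0.0354, Cbr2 had 157 ± 119 CPM and 0.0251, Grhl2 had 109 ± 7.58 CPM and 0.00208, and Foxa1 had 173 ± 87.4 CPM and 0.0069. Lcn2, an iron-siderophore-binding lipocalin, was lower there, at 90.0 ± 104 CPM (SD) against 1768 ± 275 CPM in LMP1, with an adjusted p of 0.0424 that was kept in 4 of 10 alternatives and lost without either LMP1 library or Lung-LMP1 replicate 1 or 3 (adjusted p = 0.0811 to 0.186). Cebpd was lower too, at 10.9 ± 5.47 CPM (SD), with an adjusted p of 0.0121, and 0.114 or 0.0767 without LMP1 replicate 1 or 2. These were 2 higher and 1 lower of 16 club cell and airway fluid genes and the same of 16 fate factors, with 0 of 11 goblet cell genes called by edgeR, against 10.1% of all genes. Both comparisons share the LMP1 libraries. Without LMP1 replicate 1, the adjusted p was 0.0507 for Grhl2, 0.114 for Foxa1, 0.114 for Cbr2 and 0.256 for Tspan8 against Ctr. Without LMP1 replicate 2, that of Foxa1 was 0.0813, that of Cbr2 0.105 and that of Tspan8 0.182. Tspan8 against Ctr also missed the threshold without Ctr replicate 1 (0.0732) or replicate 2 (0.0675). Against Lung-LMP1, leaving out LMP1 replicate 1 or 2 gave 0.278 and 0.171 for Tspan8, 0.200 and 0.180 for Cbr2, and 0.113 and 0.0625 for Foxa1. Tspan8 missed it too without Lung-LMP1 replicate 2 (0.0686) or replicate 3 (0.0731). Of the goblet cell genes, only Fcgbp was called in a comparison between tumour groups, LMP1 against Ctr, with an adjusted p of 0.0494 that was kept in 3 of 10 alternatives.

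Tumours were also compared with the normal library columns that stand beside Ctr in the table of Ctr against normal nasopharynx. Those 3 columns are headed as normal lung, but between 73.7% and 75.0% of genes had a count from 20% below to 5% above that in the Normal_nasopha library of the same number, against at most 19.3% for any other normal library. They are called the normal comparator here and are not independent of Normal_nasopha. Bpifb4 stood at 202, 493 and 3028 CPM in them and Scgb3a2 at 0 counts in all 3.

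All 4 BPI fold genes were lower in each of the 4 tumour groups than in the comparator, and all these differences were called by edgeR. The 4 genes passed the filter on low counts only through the comparator columns, so that they could enter the test only with a lower level in tumours, and their values are given as a description. Of the 10 genes, 7 had enough counts to test. Of 14096 genes tested, 35.1% passed for Ctr (16.1% higher, 19% lower), 28.2% for LMP1 (13.7% and 14.5%), 27.4% for Lung-Ctr (13.2% and 14.2%) and 32% for Lung-LMP1 (14.6% and 17.4%). Bpifa1 was at 585, 12.6 and 101 CPM in the comparator and at 0.0734, 0.360 and 0 CPM in Ctr, with a log2 fold change of -10.67 ± 2.05 (SE) and an adjusted p of 0.00482 by edgeR. Against the groups with 0 counts, the Bpifa1 mean in the comparator was at least 2550-fold that of LMP1 and at least 2283-fold that of Lung-Ctr. In Lung-LMP1, where replicate 3 had 1.52 CPM, the log2 fold change was -8.92 ± 1.84 (SE), with an adjusted p of 0.00851. No library of any tumour group reached the lowest comparator library.

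Bpifb4 had 0 counts in Ctr and Lung-Ctr, and its comparator mean was at least 17325-fold and 12169-fold higher. In LMP1, with 0.277 and 0 CPM, its log2 fold change was -12.99 ± 1.89 (SE), with an adjusted p of 0.0034. In Lung-LMP1 it had 1 count, and the ratio of pooled counts was 53571, with a 95% counting interval of 9615 to 2115960. Bpifb9a had 0 counts in every tumour library and 140, 10.1 and 60.1 CPM in the comparator, so that its mean was at least 978-fold, 767-fold, 687-fold and 1020-fold higher than in Ctr, LMP1, Lung-Ctr and Lung-LMP1, with adjusted p-values of 0.00701, 0.0164, 0.0164 and 0.0091 by edgeR. Bpifb1 was at 4.04, 0.340 and 2.10 CPM in the comparator and at 0 CPM in 8 tumour libraries. The ratio of its pooled counts was 44.5 against Ctr (95% counting interval 12 to 372) and 69.8 against LMP1 (12.3 to 2782), and its mean was at least 21.2-fold that of Lung-Ctr and at least 31.5-fold that of Lung-LMP1. Its adjusted p-values were 0.0219 for Ctr, 0.0399 for LMP1, 0.0286 for Lung-Ctr and 0.0141 for Lung-LMP1 by edgeR.

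The calls against the comparator leaned on few libraries for the smaller groups. Without either LMP1 library only Bpifb4 was called lower in LMP1, and without either Lung-Ctr library only Bpifb4 was called lower in Lung-Ctr. The highest adjusted p among the lost calls was 0.213 for LMP1 and 0.109 for Lung-Ctr, both for Bpifb1. In a fit of Lung-Ctr and the comparator alone, none of the 4 passed, with adjusted p-values of 0.0554 for Bpifb4 to 0.0851 for Bpifb1. Bpifb1 in Ctr missed the threshold without Ctr replicate 1 (0.0607) or replicate 3 (0.0645).

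Mucins were rarely called against the comparator, though most of their log2 fold changes were negative. In LMP1, Muc1, Muc4 and Muc5b were all lower without overlap of libraries. Muc1 was lower in Lung-LMP1, with a log2 fold change of -3.72 ± 1.23 (SE) and an adjusted p of 0.0401 by edgeR, and no library overlapped. That call was kept without comparator replicate 2 and lost without any other single library of these groups, with adjusted p-values of 0.0572 to 0.116. It was also lost with no filter on low counts (0.0706). Muc1 did not pass by edgeR for Ctr (adjusted p = 0.533), LMP1 (0.0591) or Lung-Ctr (0.122). DESeq2 called it lower in LMP1 (0.00178) and in Lung-Ctr (0.0268), and edgeR did so for LMP1 without comparator replicate 2 (0.0499) and in a fit of the compared groups alone (0.0322). Muc4 was not called by edgeR in any of the 4 comparisons, with log2 fold changes of 2.24 in Ctr, -4.28 in LMP1, -0.81 in Lung-Ctr and 2.58 in Lung-LMP1 and adjusted p-values of 0.142, 0.0613, 0.652 and 0.103. DESeq2 called Muc4 lower in LMP1 (0.00105) and higher in Lung-LMP1 (0.0289), and edgeR called it lower in LMP1 in a fit of the compared groups alone (0.0379) and higher in Ctr without Ctr replicate 3 (2.80, adjusted p = 0.0376). Muc5b had log2 fold changes of -3.76 in Ctr, -6.42 in LMP1, -7.04 in Lung-Ctr and 1.20 in Lung-LMP1. None of these was called by edgeR, with adjusted p-values of 0.0927 to 0.614. In a fit of the compared groups alone, edgeR called Muc5b lower in LMP1 (0.0212). Scgb1a1, at 0.965, 0.397 and 0.361 CPM in the comparator, had too few counts to test. These comparisons share the 3 comparator columns.

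Bpifb9b and Scgb1c1 also passed the filter only through the comparator, and their values are given as a description. Bpifb9b, the near copy of Bpifb9a, had 5984 counts in the comparator and 5 in the 10 tumour libraries. Scgb1c1 was at 22.6 ± 17.4 CPM (SD) in the comparator and at 0 counts in all 3 Ctr libraries. Among 7 other mucins tested, Muc5ac fell in Ctr (adjusted p = 0.0486, kept in 4 of 11 alternatives), and no other mucin passed in any tumour group.

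Genes whose pattern over 13 libraries lay nearest to each gene were found as those with the smallest root mean square difference of centred log2 CPM, among 14096 genes. Bpifa1 was nearest to Bpifb9b, at 0.517, and then to Bpifb9a, at 0.620. Bpifb9a was nearest to Bpifb9b, at 0.305, and Bpifb4 to Cyp2a5, a cytochrome P450 known from olfactory mucosa and liver, at 0.419. Muc1 was nearest to Ifitm1, an interferon-induced membrane protein, at 0.790, Muc4 to Tspan8 at 0.854 and Muc5b to Agr2 at 1.15. Bpifb1, which is near 0 in most libraries, was nearest to Gdf5 at 0.112. Bpifa1, Bpifb4 and Bpifb9a had only 25, 6 and 0 counts over all tumour libraries. Their likeness to other genes thus rests mostly on the comparator columns. Agr2 was at 86.8 CPM in Lung-LMP1 replicate 2, the library with the high Muc5b, and at 0 to 7.90 CPM in the other 9 tumour libraries.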

How the data were processed

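Poly(A) RNA-seq of 16 mouse organoid libraries was analysed from deposited tables. The submitters' processing notes name STAR, DESeq2, DESeq and the mm10 build. Versions, the read counter, its annotation and its strand setting are not given in sources used here. Per the file headers, the deposited tables hold raw counts for each gene, and only these counts were tested here. The log2 fold change and the adjusted p-value columns that the authors deposited were quoted only as the authors' deposited table. A further 32 scaled columns per sample were not used. The 13 columns that hold a library a second time matched exactly.

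CPM were computed from counts and library totals (12535166 to 21737184 counts). Counts were tested with edgeR 4.0.16 (R 4.3.3, limma 3.58.1): filterByExpr, TMM, robust quasi-likelihood fit and Benjamini-Hochberg adjustment over all genes tested, called under 0.05. Standard errors are the log2 fold change divided by the square root of F. The 3 fits held the 6 normal libraries, the 10 tumour libraries, and these 10 with the 3 comparator columns. On simulated data, 200 genes changed by a log2 of 3 were called in 100% (normal tissues, 15886 genes), 99% (Lung-LMP1 against LMP1, 13460 genes) and 99.5% (Ctr against comparator, 14096 genes) of cases, and 3%, 6.7% and 8% of the calls were false. The simulated counts had 1 fixed spread for every gene. Several genes described here varied more, such as Muc4, by 42.9 times among Ctr libraries. These rates therefore do not give the power or error for such genes. The alternatives were DESeq2 1.42.0, no filter on low counts, RLE size factors, a replicate block, only the groups compared, each library left out, and, chosen after seeing the data, summed counts of Bpifb9a and Bpifb9b. The 10 genes and all lists were chosen with earlier results of these data known. From each list the text names the called genes of lowest adjusted p, up to 3 in each direction between normal tissues and up to 2 in a tumour comparison; against the comparator only the BPI fold, secretoglobin and mucin lists were read. Muc20, Cebpd, Notch2, Lcn2 and single markers were named after their values were seen. Intervals and floors cover counting error only.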

Additional observations from a re-analysis of the deposited data

Results flagged for a closer look

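Among the genes of the secretory lists, Foxa1 and Grhl2 were flagged by the interaction test. Their difference of TMPL from TMP was unlike in the groups with and without the Lung prefix. The log2 interaction value was 3.95 ± 0.70 (SE) for Foxa1, with an adjusted p of 0.0446 by edgeR, and 3.38 ± 0.46 (SE) for Grhl2, with an adjusted p of 0.0239. Foxa1 kept the call in 6 of 14 alternatives and Grhl2 in 7 of 14, with highest adjusted p-values of 0.310 and 0.192, both without LMP1 replicate 1.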

How the results depend on the processing

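The 5 calls between normal nasopharynx and lung were kept in all 11 alternatives. All of these genes but Muc1 passed the filter on low counts only through the tissue where they were high. For those genes the kept calls are a description. For LMP1 against Ctr, where 1 of the 10 genes was called, DESeq2 called 2, no filter on low counts 0, the replicate block 0, a fit of the compared groups alone 0, and leaving out single libraries 0 to 1. For Lung-LMP1 against LMP1, also 1 call, no filter gave 0, the replicate block 0 and each left-out library 0. For the interaction, with 0 calls, DESeq2 gave 1 and leave-outs 0 to 1. Against the comparator, leaving out single libraries gave 1 to 5 calls for LMP1 (4 in full), 1 to 4 for Lung-Ctr (4 in full) and 3 to 5 for Lung-LMP1 (5 in full), and a fit of Lung-Ctr and the comparator alone gave 0. Log2 fold changes reversed for Muc5b between normal tissues (-0.12 and -0.17 without Normal_nasopha replicate 1 or 3, -0.21 without Normal_lung replicate 2, up to 0.90 without Normal_lung replicate 1), for Muc4 there (0.13 and 0.10 without Normal_nasopha replicate 2 or 3, down to -1.10 without replicate 1), for Muc5b in LMP1 against Ctr (0.55 without Ctr replicate 1, down to -3.31 without Ctr replicate 3), for Muc1 in Lung-LMP1 against Lung-Ctr (2.92 without Lung-Ctr replicate 1, down to -1.60 without replicate 2), for Muc4 in Lung-Ctr against the comparator (0.12 without comparator replicate 1, down to -2.30 without Lung-Ctr replicate 1) and for Muc5b in Lung-LMP1 against the comparator (-4.73 without Lung-LMP1 replicate 2, up to 1.77 without replicate 3). None of these had been called in full, and the cause was not tested. Over the alternatives for the 10 genes, 493 values kept their direction and side of the threshold, 45 lost a call, 15 gained one and 9 reversed; for other named genes 675 kept both and 158 lost a call. Summing Bpifb9a and Bpifb9b changed no call. Replicate numbers are shared by the titles, and whether they pair samples is not given. Correlations of same-numbered deviations from group means ran from -0.196 to -0.105 between the normal tissues. Such deviations within a small group depend on each other, so these values cannot settle whether samples are paired. With the replicate block, Bpifa1 and Bpifb1 passed between normal tissues (adjusted p = 0.0423 and 0.0373), Muc4 did not for LMP1 against Ctr (0.0685) or Lung-LMP1 against LMP1 (0.0697), against the comparator Bpifb1 did not for Ctr (0.0777), LMP1 (0.0954) or Lung-Ctr (0.0777) nor Muc1 for Lung-LMP1 (0.0814), and genes called went from 2210 to 483 for LMP1 against Ctr, 1361 to 360 for Lung-LMP1 against LMP1, 120 to 2 for the interaction and 3980 to 2517 for LMP1 against the comparator. Where leaving out a library left 1 in a group, it was assumed to vary like the others. In fits of the compared groups alone, genes called against the comparator went from 4944 to 2917 for Ctr, 3980 to 2288 for LMP1, 3861 to 168 for Lung-Ctr and 4516 to 2937 for Lung-LMP1, and from 1361 to 2682 for Lung-LMP1 against LMP1. DESeq2 called 3576 genes for LMP1 against Ctr, 2537 for Lung-LMP1 against LMP1 and 926 for the interaction. Without LMP1 replicate 1 or 2, edgeR called 25 or 126 genes for LMP1 against Ctr and 33 or 154 for Lung-LMP1 against LMP1. Depth limits a single library to 0.138 to 0.239 CPM at 3 counts.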
